A study of Mus musculus with 6 samples.

Results

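Interferon response genes are the genes that cells switch on when they sense interferon or foreign nucleic acid. The set described here holds 38 of them, given by symbol, and a gene was measured where the RefSeq accession of a probe mapped to its symbol. By that rule 36 of the 38 genes had at least 1 probe, out of 20128 genes with a probe in all. No accession on the array mapped to Mx1 or Mx2, which the gene table lists as transcribed pseudogenes, so neither is given a value. All 36 were well above background on all 6 arrays, so no member was lost to the filter on dim probes.

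Whole hearts were taken from C57/B6 mice aged 8 weeks, and their RNA was labelled with Cy3 and measured on 1-colour Agilent mouse arrays, 1 array per heart. The 3 tested hearts came from mice whose genotype is given as PHD2/3f/f; Cre+/-, and the 3 control hearts from mice given as PHD2/3f/f; Cre-/-, so both groups carry the floxed alleles of PHD2 and PHD3. The labels name neither the Cre driver, an inducer nor the sex. They give 2 RNA preparations, columns for heart RNA and a blood kit with globin removal, and which one was used cannot be told apart. PHD2 and PHD3 are oxygen-dependent prolyl hydroxylases that mark hypoxia-inducible factors for destruction. The study is about how PHD2 and PHD3, through the thyroid hormone receptor alpha, act on phospholamban and on the stressed heart.

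Type I interferons bind the IFNAR1/IFNAR2 receptor, whose kinases JAK1 and TYK2 phosphorylate STAT proteins. STAT2 and IRF9 are part of ISGF3, a complex that binds the interferon-stimulated response element (ISRE) in promoters. Interferon gamma uses another receptor and acts mainly through the gamma-activated site (GAS), and it is the classic inducer of IRF1 and of the guanylate-binding and immunity-related GTPases. In the heart these genes are known from viral myocarditis and from the response to nucleic acids released by injured cells.

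The ISRE is shown here in the promoters that hold it, because it is the sequence these genes are known to share. It was searched on both strands as GAAA, any 2 bases and GAAA again, or TTTC, any 2 bases and TTTC. The search covered the 250 bases before the start that a RefSeq promoter table of build GRCm38.p6 lists for a gene. For Ifit3 and Oas1a that start lies inside the gene as bounded in the gene table. The Ifit3 window shown therefore lies within the gene, and the Oas1a window reaches into it. Promoters were listed for 28 of the 36 members, and 12 of the 28 (42.9%) held at least 1 ISRE, against 936 of 27025 genes (3.46%) in the whole table. The GAS, searched as TTC, any 3 bases and GAA, which reads the same on both strands, was in 7 of 28 members (25.0%) and in 8.13% of all genes, and 4 members (14.3%), against 0.459% of all genes, held both motifs. The motifs may overlap each other. Each of 8 promoter windows is given below from 5′ to 3′ on the gene's own strand, with the ISRE letters in capitals. The first 5 genes rose in the KO-labelled hearts and the last 3 did not pass the test, so that both kinds can be compared.
Isg15, chr4:156200855-156200916, minus strand: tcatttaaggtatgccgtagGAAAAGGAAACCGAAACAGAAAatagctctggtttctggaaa
Oas1a, chr5:120907526-120907565, minus strand: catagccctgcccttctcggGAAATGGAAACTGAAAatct
Bst2, chr8:71537567-71537622, minus strand: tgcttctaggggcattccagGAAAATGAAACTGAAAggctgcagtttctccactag
Stat2, chr10:128270256-128270305, plus strand: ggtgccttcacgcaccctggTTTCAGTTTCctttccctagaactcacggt
Ifit3, chr19:34583353-34583436, plus strand: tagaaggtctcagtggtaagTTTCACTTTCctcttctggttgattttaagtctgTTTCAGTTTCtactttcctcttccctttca
Gbp2, chr3:142620584-142620633, plus strand: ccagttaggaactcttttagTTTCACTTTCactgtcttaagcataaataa
Igtp, chr11:58199502-58199551, plus strand: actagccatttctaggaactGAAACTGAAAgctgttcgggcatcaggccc
Rsad2, chr12:26456543-26456592, minus strand: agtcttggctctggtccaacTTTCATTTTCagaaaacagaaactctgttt

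The ISRE of Isg15 consisted of 3 overlapping copies that ended 57 bases before the start. Oas1a and Bst2 had 2 overlapping copies each, Ifit3 had 2 separate copies, and the others shown had 1.

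Egln1, which encodes PHD2, was lower in the KO-labelled hearts, with log2 signals of -0.39, 0.29 and 0.06, against 1.27, 1.39 and 0.99 in control hearts. Egln3 went the other way, with 4.24, 4.62 and 4.77 in the KO-labelled hearts, against 2.57, 2.44 and 2.69 in control hearts. Egln3 encodes PHD3. Egln2, the gene of the third family member PHD1, did not pass (-0.27 ± 0.13 SE). Which exons Cre removes is not stated in the labels, so a probe outside them would check nothing, and the hearts are named by their labels only. All values below are log2 signals relative to the 75th percentile of the array, and a difference is KO-labelled minus control, with its standard error and an adjusted p from limma's moderated test over all genes. The 6 arrays shared 1 slide and 1 scan. The KO-labelled arrays sat in array column 2 and the control arrays in array column 1, so the position on the slide and the group cannot be told apart. For 1 gene taken alone, exact permutation of 3 against 3 hearts gives p = 0.1 at best, and the calls rest on the variance pooled over genes.

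Of the 36 measured interferon response genes, 21 rose (58.3%), 0 fell and 15 did not pass. Over all 20020 genes and unnamed features tested, 39.1% passed, made up of 16.1% that rose and 23.0% that fell. The median difference of the members was 0.49 on the log2 scale, against -0.11 for everything tested. The members were chosen with earlier results of these data known, so these contrasts are given without a test. The groups did not overlap for 28 members (55.9% of everything tested), with all 3 KO-labelled hearts above all 3 control hearts for 26 (22.7% of everything tested) and below them for 2 (33.1%). The rises were of moderate size: the largest, of Zbp1, was 2.69-fold and lay at percentile 94.8 of all differences. The smallest of the 21, of Eif2ak2, was 1.36-fold. In whole hearts, a changed share of a cell type and a changed amount of RNA per cell cannot be told apart.

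**Figure D1:**
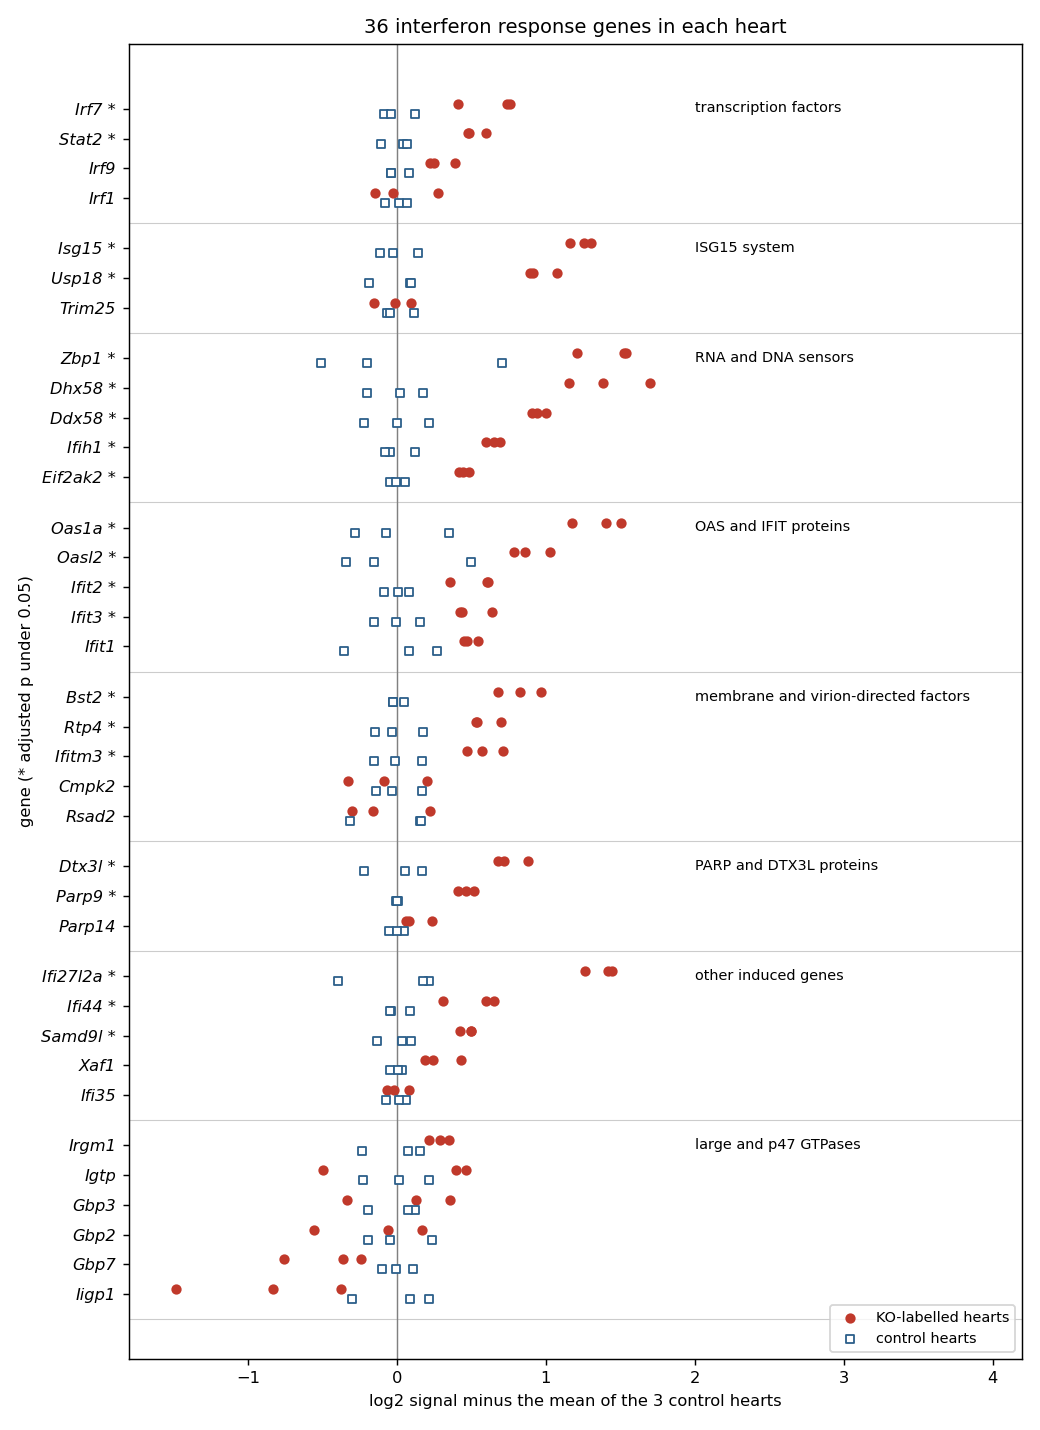
Log2 signal of each of 36 interferon response genes in each heart, relative to the mean of the 3 control hearts, with filled circles for KO-labelled hearts and open squares for control hearts and genes grouped by role. An asterisk marks an adjusted p under 0.05. For 26 genes all KO-labelled hearts lie to the right of all control hearts, while the GTPases at the bottom spread to both sides of 0.

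Among the transcription factors, the genes of the ISGF3 subunits STAT2 and IRF9 were higher in every KO-labelled heart than in any control heart, but Irf9 did not pass. Stat2 had signals of 2.89, 3.00 and 2.88 in KO-labelled hearts, against 2.29, 2.45 and 2.47 in control hearts (difference 0.52 ± 0.11 SE, adjusted p = 0.0146). Irf9, the DNA-binding subunit, had a difference of 0.29 ± 0.11 SE (adjusted p = 0.0845). Irf7, the master regulator of interferon alpha genes, rose 1.56-fold, with signals of 0.78 to 1.13 in KO-labelled hearts and 0.28 to 0.49 in control hearts. Irf1, the classic target of interferon gamma, had a difference of 0.03 ± 0.14 SE (adjusted p = 0.868), and its groups overlapped.

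The ISG15 system rose in 2 of 3 genes. Isg15 encodes a ubiquitin-like protein that is attached to other proteins during an interferon response, and it had the smallest p of the set. Its signals were 4.88, 4.74 and 4.83 in KO-labelled hearts, against 3.46, 3.71 and 3.55 in control hearts, a 2.36-fold rise (difference 1.24 ± 0.12 SE, adjusted p = 0.0022). The other Isg15 probe had a difference of 1.21. Usp18, the protease that removes ISG15 and also restrains the type I receptor, had 1.56, 1.73 and 1.54 in KO-labelled hearts, against 0.47, 0.74 and 0.74 in control hearts (difference 0.96 ± 0.13 SE, adjusted p = 0.0041). For both genes the lowest KO-labelled heart lay well above the highest control heart. Trim25, a ligase that acts in ISG15 conjugation and on RIG-I, did not pass (-0.03 ± 0.12 SE).

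All 5 sensors of foreign or misplaced nucleic acid rose. Dhx58 encodes LGP2, a helper of the RNA sensors, and had 0.17, -0.37 and -0.15 in KO-labelled hearts, against -1.73, -1.35 and -1.50 in control hearts (difference 1.41 ± 0.18 SE, adjusted p = 0.00352). Ddx58, the gene of RIG-I, had 2.77, 2.83 and 2.74 in KO-labelled hearts, against 1.62, 2.05 and 1.83 in control hearts (difference 0.95 ± 0.14 SE, adjusted p = 0.00491). Its KO-labelled hearts lay within 0.09 of each other. Ifih1, the gene of the long-RNA sensor MDA5, had 1.25, 1.30 and 1.34 in KO-labelled hearts, against 0.61, 0.57 and 0.77 in control hearts (difference 0.65 ± 0.11 SE, adjusted p = 0.00749). Zbp1, which encodes a sensor of Z-form nucleic acid that can trigger necroptosis, had 1.49, 1.16 and 1.48 in KO-labelled hearts, against -0.55, 0.66 and -0.25 in control hearts (difference 1.43 ± 0.31 SE, adjusted p = 0.0147). Its control hearts spread over 1.22, with replicate 2 highest, and the call was lost when control replicate 3 was left out (adjusted p = 0.0573). Eif2ak2, the gene of the RNA-activated kinase PKR, had the smallest spread among the KO-labelled hearts of any member, 0.07, and a difference of 0.45 ± 0.10 SE.

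Of 5 OAS and IFIT genes, 4 rose. OAS enzymes make the second messenger that activates RNase L, and Oas1a had 4.26, 3.93 and 4.15 in KO-labelled hearts, against 2.47, 3.10 and 2.68 in control hearts (difference 1.36 ± 0.19 SE, adjusted p = 0.00429). Both of its probes gave 1.36. Oasl2 rose 1.86-fold, with control replicate 2 at 2.86 and the other control hearts at 2.02 and 2.21. IFIT proteins bind viral RNA, and Ifit2 and Ifit3, neighbours on chromosome 19, rose 1.44-fold and 1.41-fold. Ifit1 had a difference of similar size, 0.49 ± 0.18 SE, without overlap between the groups, but did not pass (adjusted p = 0.0671). The OAS and IFIT families hold close copies, and since probe sequences were not used here, reads of one copy by the probe of another cannot be told apart.

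Among the membrane and virion-directed factors, 3 of 5 rose. Bst2 encodes tetherin, which holds budding virions at the cell surface, and had 4.72, 4.87 and 5.01 in KO-labelled hearts, against 4.01, 4.02 and 4.09 in control hearts (difference 0.82 ± 0.12 SE, adjusted p = 0.0048). Ifitm3, which blocks viral entry, and Rtp4, which encodes an inducible receptor transporter protein, each rose 1.50-fold. Rsad2, the gene of viperin, and Cmpk2, which makes a substrate of viperin, are neighbours on chromosome 12, and neither passed (-0.08 ± 0.20 SE and -0.07 ± 0.17 SE). Rsad2 had 1.72, 2.24 and 1.86 in KO-labelled hearts, against 2.18, 1.70 and 2.18 in control hearts, so that its groups overlapped. The promoter of Rsad2 holds an ISRE.

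Parp9 and Dtx3l encode partners in one ubiquitin ligase complex, and their genes overlap on chromosome 16. Parp9 had 1.75, 1.65 and 1.70 in KO-labelled hearts, against 1.23, 1.24 and 1.23 in control hearts (difference 0.46 ± 0.10 SE, adjusted p = 0.0154). Its control hearts were nearly identical, with a spread of 0.01. Dtx3l had 2.30, 2.26 and 2.45 in KO-labelled hearts, against 1.74, 1.35 and 1.63 in control hearts (difference 0.76 ± 0.14 SE, adjusted p = 0.0091). The other Dtx3l probe had a difference of 0.085 (adjusted p = 0.651 over all kept probes), so the rise rests on 1 of its probes. Parp14, next to Dtx3l, did not pass (0.13 ± 0.11 SE).

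Of the other induced genes, 3 of 5 rose. Ifi27l2a, which encodes a small hydrophobic protein, had 7.68, 7.49 and 7.65 in KO-labelled hearts, against 5.84, 6.45 and 6.41 in control hearts, a 2.60-fold rise (difference 1.38 ± 0.19 SE, adjusted p = 0.0041). Ifi44 rose 1.43-fold and Samd9l, a growth-restraining antiviral gene, 1.39-fold. Ifi35 did not pass (adjusted p = 0.997), and its groups overlapped. Xaf1, which encodes a partner of the apoptosis inhibitor XIAP, had 2.03, 2.27 and 2.09 in KO-labelled hearts, against 1.80, 1.88 and 1.86 in control hearts (0.29 ± 0.12 SE, adjusted p = 0.0944), while its other probe had -0.29.

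The GTPases stood apart in their values. None of the 6 measured GTPase genes rose, whereas 21 of the other 30 members did, and their medians were -0.05 and 0.52. This grouping by protein role was made after the values had been seen, so the contrast is a description without a test. Guanylate-binding proteins and immunity-related GTPases attack the membranes around intracellular pathogens. Iigp1 had -0.45, 0.66 and 0.21 in KO-labelled hearts, against 1.26, 1.12 and 0.73 in control hearts, below them without overlap (-0.90 ± 0.30 SE, adjusted p = 0.0517). Its other probe overlapped between the groups, with -1.73, -0.91 and -0.97 in KO-labelled hearts, against -0.35, -0.31 and -1.10 in control hearts (-0.62 ± 0.30 SE, adjusted p = 0.145 over all kept probes). Gbp7 had -0.65, -0.13 and -0.25 in KO-labelled hearts, against 0.10, 0.22 and 0.01 in control hearts (-0.45 ± 0.16 SE, adjusted p = 0.068). The brightest probes of both therefore lay on the opposite side from Isg15. Iigp1 passed as lower under 7 of 18 alternative settings and Gbp7 under 2, while with array weights Igtp (0.44, adjusted p = 0.0483) and Irgm1 (0.34, adjusted p = 0.0191) passed as higher.

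Igtp had 2.32, 3.28 and 3.21 in KO-labelled hearts, against 3.03, 2.83 and 2.59 in control hearts, with KO-labelled replicate 1 below all controls and the other two above them. Gbp2 (-0.15 ± 0.22 SE) and Gbp3 (0.05 ± 0.20 SE), which lie near Gbp7 on chromosome 3, also overlapped between the groups. Irgm1 had 2.19, 2.25 and 2.12 in KO-labelled hearts, against 1.98, 2.06 and 1.67 in control hearts (adjusted p = 0.144), and its other probe had -0.06. Promoters were listed for 5 of these GTPases, and all 5 held an ISRE. It was found in 5 of 15 members that rose and in 7 of 13 that did not pass, which include these 5.

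On the median, the GTPases also varied more among the KO-labelled hearts. The median spread (highest minus lowest KO-labelled heart) was 0.71 on the log2 scale for the 6 GTPases and 0.21 for the other 30 members, against 0.33 for all 13191 named genes. In the control hearts the median spread was 0.41 for the GTPases, 0.24 for the other members and 0.32 for all named genes. KO-labelled replicate 1 was the lowest of its group for 5 of the 6 and replicate 2 the highest for all 6. Per heart, the median GTPase shift from the control mean was -0.53, 0.26 and 0.04 in the KO-labelled hearts. For the other members it was 0.54, 0.61 and 0.48, so these medians lay close together for the other members and apart for the GTPases. Single genes departed from this. Among the other 30 members, replicate 1 was lowest for 11 and replicate 2 highest for 16. Cmpk2, Rsad2 and Irf1, which did not pass, had that order as well, with spreads of 0.53, 0.52 and 0.43. The GTPase Irgm1 had a spread of only 0.13. The sign of the GTPase median, -0.05, was not stable: it was 0.15 without KO-labelled replicate 1, 0.03 without control replicate 2, 0.13 with array weights, and between 0.02 and 0.23 with normexp, quantile, cyclic loess or spike-in scaling.

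**Figure D2:**
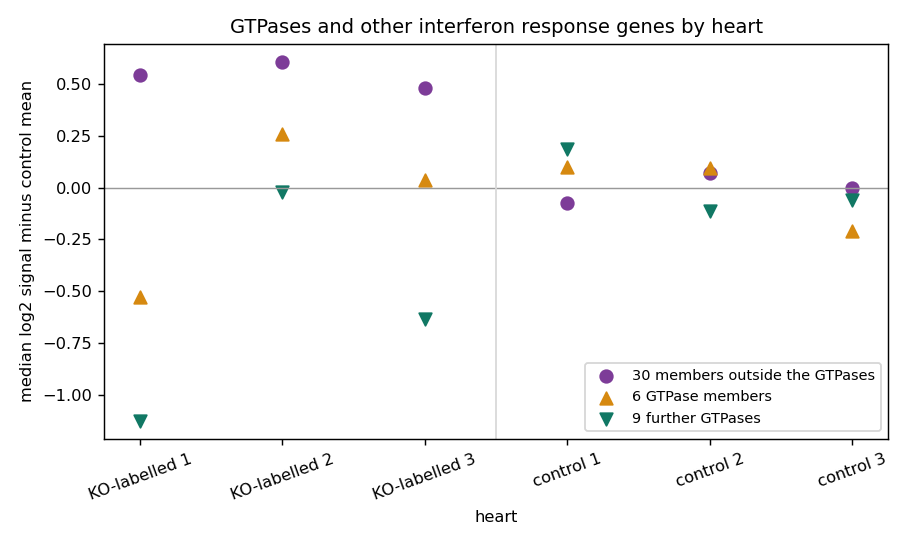
Median log2 signal relative to the mean of the control hearts, per heart, for 30 interferon response genes that are not GTPases (circles), the 6 GTPase members (upward triangles) and 9 further GTPases (downward triangles). The circles lie between 0.48 and 0.61 in the KO-labelled hearts, where the GTPases range from -1.12 to 0.26. The further GTPases include Tgtp1, which entered the tests only through the control group.

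The wider pathway was read from lists of related genes. Of 66 further interferon-induced genes, 59 had a probe and 54 were tested, with a median difference of 0.27. Of the 54, 24 rose (44.4%), 3 fell (5.56%) and 27 did not pass, against 16.1% and 23.0% of everything tested. The rises with the smallest p were of Irf8, a myeloid transcription factor (1.49 ± 0.12 SE), Lgals3bp, a secreted galectin-binding protein (1.19 ± 0.13 SE), Trim30a (0.86 ± 0.10 SE) and Mov10, an RNA helicase (0.91 ± 0.12 SE). Each had all KO-labelled hearts above all control hearts. The 3 that fell, named after their values were seen, were Tgtp1, Gbp10 (-0.91 ± 0.27 SE) and Pnpt1 (-0.48 ± 0.12 SE), of which the first and second encode GTPases. The Tgtp1 probe cleared the background on each control array but on 0 of 3 KO-labelled arrays, and the gene was at least 2.54-fold lower in the KO-labelled hearts. It entered the tests only through the control group, where it is high, so its call is not counted as support, and 2 of the 3 are left when all 6 arrays must clear the background. Its near-identical copy Tgtp2 did not pass (-0.61 ± 0.32 SE). Gbp10 and Pnpt1 lost their calls when arrays were scaled on spike-ins (adjusted p = 0.111 and 0.405) and in several other settings. Of the 9 GTPases tested in this list, 1 rose (Ifi47, 0.99 ± 0.18 SE), 2 fell (Gbp10 and Tgtp1) and 6 did not pass. Their median, with Tgtp1 included, was -0.61, against 0.45 for the other 45. With the call of Tgtp1 left aside, Gbp10 was the only GTPase of this list that fell.

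**Figure D3:**
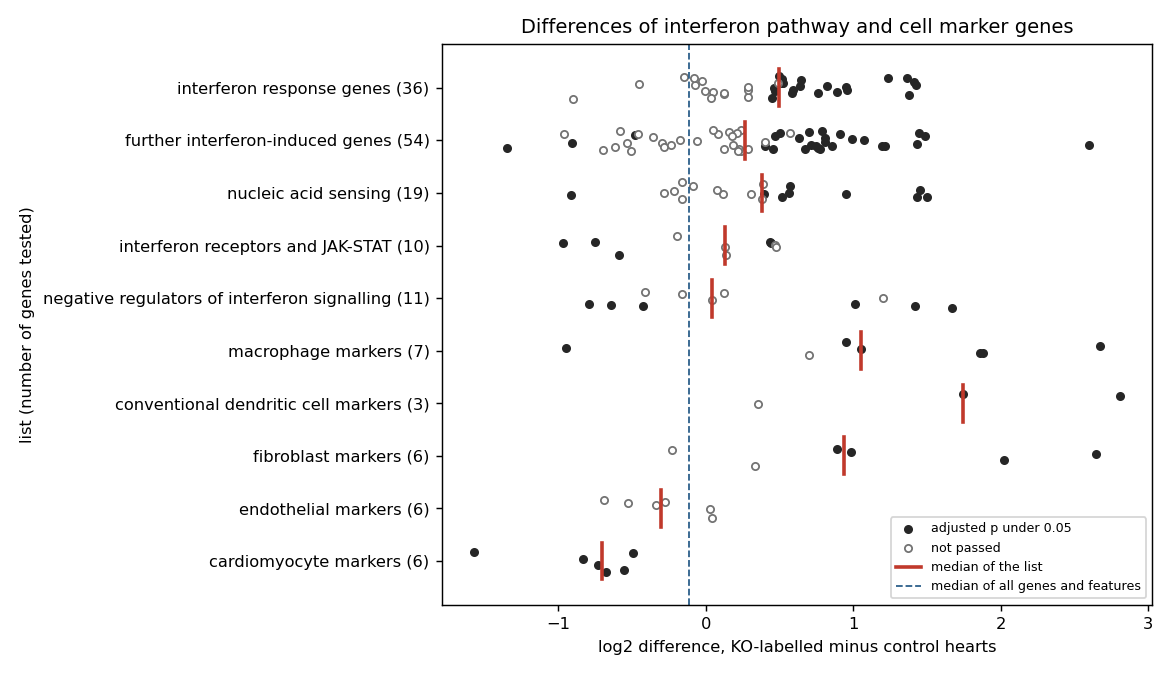
Log2 difference (KO-labelled minus control hearts) of each tested gene of the interferon lists and of cell type marker lists, 1 point per gene, filled where the adjusted p was under 0.05. The red bar is the median of a list and the dashed line the median of all genes and features, -0.11. The interferon response genes have a median of 0.49, the macrophage markers 1.05 and the cardiomyocyte markers -0.70.

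At the top of the pathway, interferon transcripts themselves were hardly measured. Of 15 interferon genes with a probe, only Ifnl3 was well above background on every array of a group, and it did not pass (-0.38 ± 0.25 SE). Of 10 receptor and JAK-STAT genes, 2 rose (20%), 3 fell (30%) and 5 did not pass, near the 16.1% and 23.0% of everything tested. Ifnar1, a chain of the type I receptor, had 1.87, 1.69 and 1.69 in KO-labelled hearts, against 1.20, 1.37 and 1.35 in control hearts (0.45 ± 0.12 SE, adjusted p = 0.0266), and Ifnar2 did not pass (0.14 ± 0.11 SE). Ifngr1, the ligand-binding chain of the interferon gamma receptor, rose (0.44 ± 0.14 SE), and its partner Ifngr2 fell (-0.75 ± 0.23 SE). The lambda receptor gene Ifnlr1 (-0.59 ± 0.12 SE) and Il10rb (-0.96 ± 0.15 SE), a chain shared with interleukin receptors, fell as well. Jak1 (0.13), Jak2 (-0.19) and Tyk2 (0.48) did not pass. Ifnlr1 lost its call when arrays were scaled on spike-ins (adjusted p = 0.212), and Ifngr2 lost its call with quantile, cyclic loess or spike-in scaling (adjusted p = 0.0623, 0.0612 and 0.0844). Ifnar1 and Ifngr1 lost theirs when any of several single hearts was left out (adjusted p up to 0.104 and 0.152).

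Among 19 tested genes of nucleic acid sensing, 8 rose (42.1%), 1 fell (5.26%) and 10 did not pass, against 16.1% and 23.0% of everything tested. Ikbke, among the 8, was well above background on only 1 of 3 control arrays and was tested only through the KO-labelled group. Cgas, which makes the messenger that activates STING, had 1.16, 1.16 and 1.19 in KO-labelled hearts, against -0.27, -0.35 and -0.38 in control hearts, a 2.83-fold rise (1.50 ± 0.10 SE, adjusted p = 0.00125). Both groups were tight, with no heart near the other group. Sting1 rose 2.70-fold and Unc93b1, the chaperone of endosomal Toll-like receptors, 2.73-fold. Mavs, the mitochondrial adaptor of RIG-I and MDA5, fell (-0.91 ± 0.14 SE, adjusted p = 0.0052), so that the sensor genes Ddx58 and Ifih1 and the gene of their adaptor moved in opposite directions. Cgas, Sting1, Unc93b1 and Mavs each passed under all 18 alternative settings.

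Of 11 tested negative regulators, 3 rose (27.3%), 3 fell (27.3%) and 5 did not pass, against 16.1% and 23.0% of everything tested. The share that fell was near that of everything tested. Socs1, an inhibitor of JAK kinases, had -0.37, 0.36 and -0.45 in KO-labelled hearts, against -1.93, -1.25 and -1.54 in control hearts (1.42 ± 0.27 SE, adjusted p = 0.00972). Ptpn6, the phosphatase SHP-1 of blood cells, rose 3.18-fold, and Tnfaip3, an inhibitor of NF-kappaB signalling, 2.01-fold. Nlrx1, a mitochondrial inhibitor of MAVS signalling, fell (-0.79 ± 0.13 SE), as did Pias2 (-0.64) and Pias4 (-0.42). Scaled on spike-ins, Nlrx1, Pias2 and Pias4 had an adjusted p of 0.102, 0.174 and 0.621, and Tnfaip3 had 0.089 when control replicate 1 was left out and 0.0873 when replicate 3 was.

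Cell type markers moved beside the interferon genes. Beside the marker counts given here, 16.1% of everything tested rose and 23.0% fell. Of 7 tested macrophage markers, 5 rose, Cd163 fell and Mrc1 did not pass. The summed signal of these macrophage markers, in multiples of the array's 75th percentile, was 125 to 206 in KO-labelled hearts and 64.6 to 97.0 in control hearts. The fractalkine receptor gene Cx3cr1 rose 6.38-fold and the macrophage gene Adgre1 3.68-fold. Among 3 tested markers of conventional dendritic cells, Flt3 and Itgax rose, although Flt3 was well above background on only 1 of 3 control arrays and so was tested only through the KO-labelled group, and the defining marker Xcr1 was not well above background on any array. All 6 cardiomyocyte markers fell, with sums of 4333 to 5233 in KO-labelled hearts and 6463 to 8807 in control hearts. The cardiac genes Myh6 and Tnnt2 were well above background on all 6 arrays, as the heart label requires. Of 6 endothelial markers 0 passed. Of 2 tested markers of plasmacytoid dendritic cells, Siglech (-0.09 ± 0.15 SE) and Ly6d (1.37 ± 1.19 SE), 0 passed. Siglech was about as bright as the macrophage marker Csf1r, with log2 signals of 6.38 to 6.83 over all hearts, against 5.47 to 6.94. Whether its probe follows the number of these cells was not tested. Of 6 fibroblast markers 4 rose. The part of these cell markers in the interferon gene differences was not tested.

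On the summed signal, replicate 2 was the lowest KO-labelled heart for both lists. The macrophage sum was 206 in replicate 1, 125 in replicate 2 and 174 in replicate 3, and the sum of the 36 members was 484, 474 and 497. The member sum is linear, so its brightest gene, Ifi27l2a, weighs most in it. Ifi27l2a had log2 signals of 7.68, 7.49 and 7.65 in these hearts and 5.84, 6.45 and 6.41 in control hearts. The order of the hearts on the member sum therefore need not hold for the other members. Counted gene by gene, replicate 2 was the highest KO-labelled heart for 22 of 36 members (61.1%, against 31.5% of everything tested), among them all 6 GTPases. Among controls, replicate 2 had the highest macrophage sum, 97.0, beside 64.6 and 76.7, and the highest member sum, 304, beside 252.0 and 287, and it was also the highest control heart for 21 of 36 members (58.3%, against 24.8% of everything tested). KO-labelled replicate 2 also held the highest signals of lymphocyte markers, with a B cell marker sum of 8.42, against 1.57 and 1.48 in the other KO-labelled hearts. Its T cell marker sum was 12.55, against 5.01 and 4.07. Of 4 tested T cell markers, 1 rose, Cd3d (3.37 ± 1.03 SE, adjusted p = 0.0414). Cd3d was well above background on only 1 of 3 control arrays and was tested only through the KO-labelled group.

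The count of rises depended on single hearts. It dropped to 10 when control replicate 1 was left out and to 9 when replicate 3 was, and was 22 when replicate 2 was. Isg15, Dhx58, Ifi27l2a, Usp18, Oas1a, Bst2, Ddx58, Ifih1 and Dtx3l, 9 of the 21, passed under all 18 alternative settings. Each of the remaining 12 lost its call under 1 to 7 of them, always including the one that left out control replicate 3. Ifi44 was lost under 7 of 18 and Ifit3, Oasl2 and Samd9l under 6 each. No member that rose changed sign under any of the 18.

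**Figure D4:**
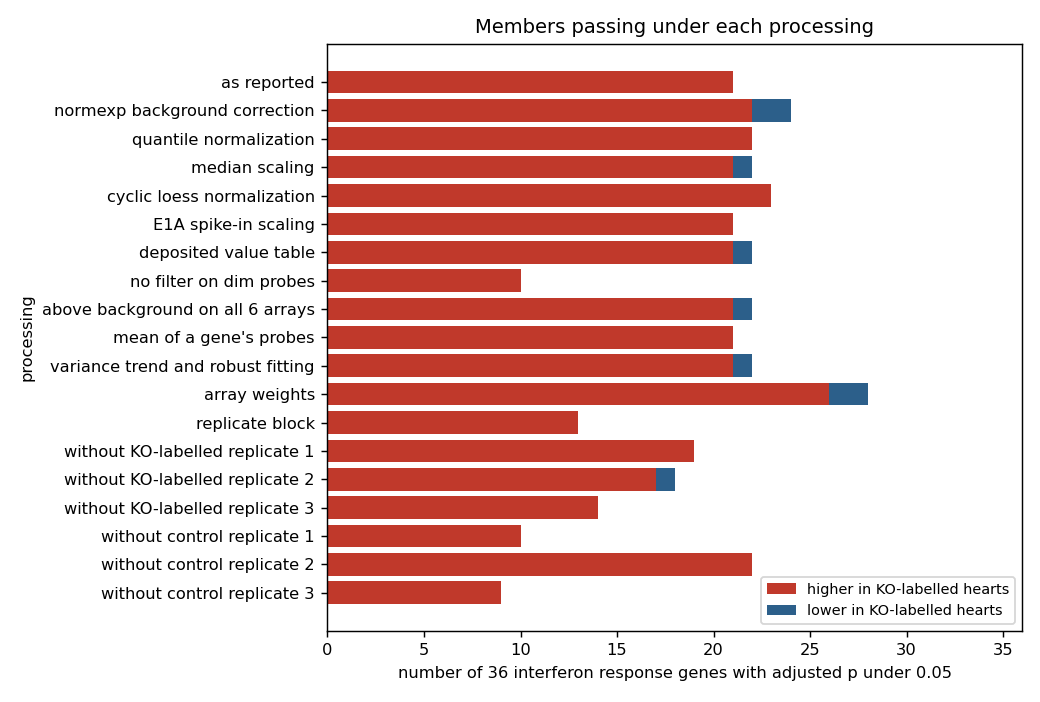
Number of the 36 interferon response genes with an adjusted p under 0.05 for each way of processing, split into higher and lower in KO-labelled hearts. The count of higher genes is 21 as reported, 9 without control replicate 3, 10 without control replicate 1, 10 when dim probes are kept, and 26 with array weights.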

How the data were processed

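Gene expression was measured on 6 arrays, 1 per heart, 3 KO-labelled and 3 control. The deposited scanner files hold 1 processed intensity per spot, background-subtracted and spatially detrended per the file headers, with flags, written by Agilent Feature Extraction 11.0.1.1 per the submitters' processing notes. A second deposited table, of log2 values, covers the same arrays. The notes also name R 3.1.3, and how that table was normalized is not stated. Of its differences between arrays, 95.9% equalled those of the scanner files plus 1 constant per array within 0.001. Its column medians were -0.04, -0.05 and -0.02 for KO-labelled and 0.09, -0.02 and 0.07 for control arrays. It served as an alternative only.

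Here, log2 of the processed signal was taken, outlier spots were left out, spots of a probe were averaged, and each array's 75th percentile (147 to 235) was subtracted. Probes were named through the RefSeq accessions of a gene table (26551 named, 29057 not, and 73 left out for outliers). Those well above background on every array of a group were kept, and a gene was represented by its brightest probe. Per array, 25771 to 28354 probes were well above background, and 0 spots were saturated. The 2-sided tests were limma's (version 3.58.1, R 4.3.3, lmFit and eBayes), with Benjamini-Hochberg adjustment at 0.05, and the fit was tested on simulated data. Normexp used spot and background medians with an offset of 50, since the files hold no spot mean.

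The members and gene lists were chosen with earlier results of these data known. Values per heart are given for the 12 passing members with the smallest p and for members whose probes disagree. From each list up to 4 passing genes with the smallest p are named, and the receptor and JAK-STAT genes, of which 1 is not reported here. Values per heart of Irf7, Oasl2, Rsad2, Iigp1, Gbp7, Igtp, Ifnar1, Cgas and Socs1 were chosen after they were seen, as were markers and other genes named beyond this rule.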

Additional observations from a re-analysis of the deposited data

How the results depend on the processing

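Of 648 values of single members under 18 alternative settings, 572 kept their direction and side of the threshold or did not pass in either case, 56 no longer passed, 20 newly passed and 0 changed sign with a call. The number of members passing, 21, was 10 without a filter on dim probes (where more features enter the adjustment) and 13 with the replicate block, and 9 to 22 when 1 heart was left out. For the further interferon-induced genes, 27 passed, against 16 without the filter, 43 with array weights, 16 with the replicate block and 12 to 26 with 1 heart left out. Over everything, 7820 passed, against 4345 without the filter, 13709 with array weights, whose estimation stopped short of its tolerance, 4854 with the replicate block and 3900 to 8692 with 1 heart left out. The members' median of 0.49 was 0.43 with normexp, 0.61 with cyclic loess, 0.77 scaled on spike-ins (an alternative chosen after seeing the data) and 0.44 to 0.52 with 1 heart left out. These scalings moved the median of everything, -0.11, to -0.10, 0.02 and 0.17, and the share of higher calls, 41.1%, to 39.7%, 55.3% and 63.5%. Ikbke had -0.057 with normexp in place of 0.57, and Ms4a4c had 1.95 with the mean of its probes in place of -0.30. The cause of these changes was not tested. The labels name no pairing of the hearts by replicate number. Same-numbered hearts deviated from their group means with correlations of -0.15, -0.125 and -0.0994, and the other combinations ranged from -0.174 to 0.272. With 3 hearts a group these correlations depend on one another, so they cannot decide whether hearts were paired. Slide as a block was not run, since all arrays lay on 1 slide. The number of hearts, 3 a group, limits the precision, and dim genes such as those of the interferons could not be compared.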
